A study of Mus musculus with 5 samples.

Results

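Voltage-gated calcium channels open when the membrane depolarizes and let calcium into the neuron. The pore is an α1 subunit, and its gene sets the type of current. The P/Q-type, N-type, and R-type pores are known for triggering transmitter release, the L-type pores for coupling activity to transcription, and the T-type pores for opening close to the resting potential and shaping burst firing. The α2δ subunits are extracellular proteins held at the membrane that raise the number of channels at the surface, and they are also known for roles in synapse formation. The genes described here are 8 pore genes and 2 α2δ genes, *Cacna1a*, *Cacna1b*, *Cacna1e*, *Cacna1c*, *Cacna1d*, *Cacna1g*, *Cacna1h*, *Cacna1i*, *Cacna2d1*, and *Cacna2d3*. They are 10 of 19938 genes with a named probe set, and were chosen by name, each by the probe set whose annotation gives this gene alone and, where there were several, by the 1 with the highest mean signal.

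The signals came from 5 GeneChip Mouse Gene 1.0 ST arrays, 1 for each group of neurons in S1 of wild-type ICR mice at PD24. The groups were association neurons in L6b, association neurons in L5, callosal neurons in L5, association neurons in L2/3, and callosal neurons in L2/3. Association neurons had taken up Green RetroBeads, a retrograde tracer, from ipsilateral M1, and callosal neurons from contralateral S1 (cS1). According to the methods of the study, all mice had also been electroporated in utero so that L2/3 neurons carried tdTomato. About 1000 labeled neurons per group were cut out by laser microdissection, so each array measured pooled RNA, and the sources used here do not say how many animals an array stands for. Because each group had 1 array, no difference below has a replicate check, a standard deviation, or a test, and 2-fold was used as a rule of size.

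A value below is a log2 signal from which the median of its array was subtracted, so 0 is the median probe set and 1 unit is a 2-fold difference. Differences are given on the same log2 scale, with a minus sign where the group named first was lower. Signals of different probe sets are not on 1 scale of molecules, so arrays were compared within a gene and no order between genes was drawn. Over 35556 probe sets, pairs of arrays had Pearson's r of 0.918 to 0.938. The L6b array carried its labels' markers, since 5 of 7 L6b/SP markers were at least 2-fold higher there than in the mean of the other 4 arrays. Their summed linear signal was 78.5 times the array median in L6b, against 8.57 to 8.83 times in the rest. Glutamatergic markers stood above the array median in every array. The summed signal of 6 oligodendrocyte markers was 44.4 in L6b, 40.7 in association L5, 20.1 in callosal L5, 9.35 in association L2/3, and 10.1 in callosal L2/3. The summed signal of 8 GABAergic markers was 16.7 in L6b, against 39.2 to 63.8 elsewhere. In such a linear sum the brightest genes weigh most.

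Many deposited values were identical between arrays, which bears on how the calcium channel genes can be read. At least 1 such tie was found in 60.6% of all probe sets, and all 5 arrays were identical in 3.85%. Among the calcium channel genes, *Cacna1g* (6.42) and *Cacna1i* (5.51) had a single deposited log2 value in all 5 arrays. *Cacna1b*, *Cacna1c*, *Cacna1d*, and *Cacna1h* had the same deposited value in 4 of the 5 arrays, and *Cacna1a* in 3. *Cacna1e*, *Cacna2d1*, and *Cacna2d3* were the 3 genes with 5 different values. Where deposited values tie, the differences of up to 0.09 that remain after scaling are those of the array medians.

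**Figure D1:**
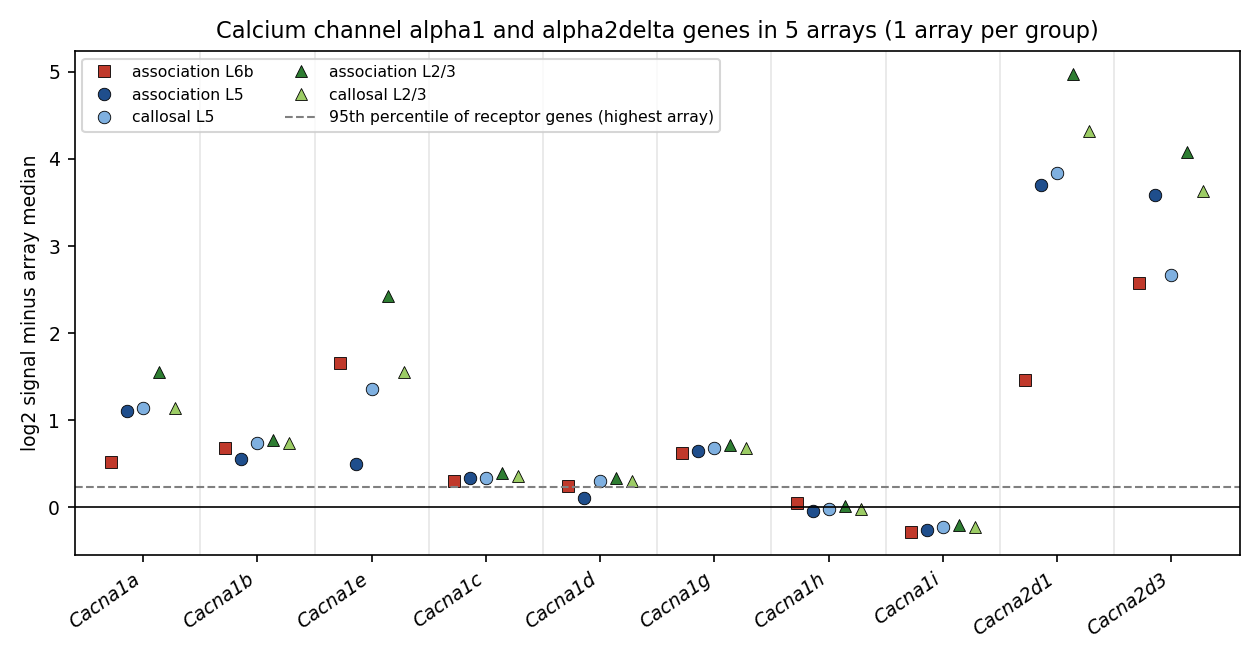
Log2 signal minus the array median (vertical axis) of the 10 calcium channel genes (horizontal axis) in the 5 arrays, 1 marker per array and no error bars because each group had 1 array; the dashed line is the 95th percentile of olfactory and vomeronasal receptor genes in the array where it was highest (0.23). *Cacna2d1*, *Cacna1e*, *Cacna2d3*, and *Cacna1a* spread by 3.52, 1.93, 1.5, and 1.03, and the other genes by 0.09 to 0.22.

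The α2δ gene *Cacna2d1* had the widest spread of the 10. It encodes α2δ-1, the subunit known as a binding site of gabapentin. It had a signal of 1.46 in association L6b, 3.70 in association L5, 3.84 in callosal L5, 4.98 in association L2/3, and 4.32 in callosal L2/3. The L6b array stood below each of the others, and the nearest array, association L5, was 4.72-fold higher. Both L5 arrays lay between L6b and L2/3, and they were 0.14 apart. A second probe set of *Cacna2d1* gave 1.37 in association L6b, 2.41 in association L5, 2.39 in callosal L5, 4.14 in association L2/3, and 3.61 in callosal L2/3. Both probe sets thus placed L6b lowest, the L5 arrays next, and association L2/3 highest, but the gap between L6b and association L5 was -2.24 in the first and -1.04 in the second. The range over the 5 arrays was 11.5-fold in the first and 6.82-fold in the second.

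**Figure D2:**
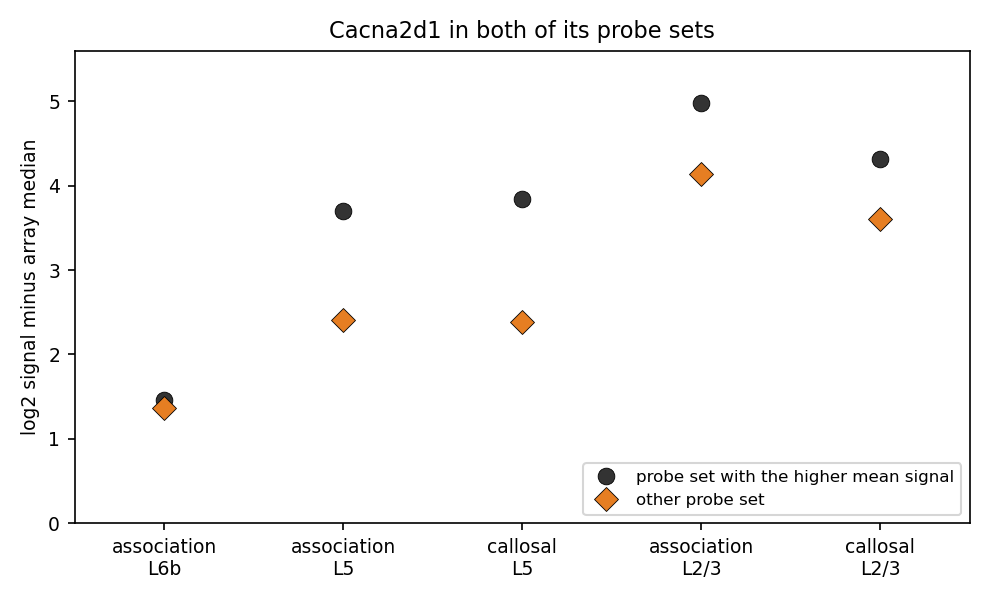
Log2 signal minus the array median (vertical axis) of both probe sets of *Cacna2d1* in the 5 arrays (horizontal axis), circles for the probe set with the higher mean signal and diamonds for the other. The probe sets nearly met in L6b (1.46 and 1.37) and were farthest apart in callosal L5 (3.84 and 2.39).

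*Cacna2d3* encodes α2δ-3, another member of the α2δ family. It had a signal of 2.58 in association L6b, 3.59 in association L5, 2.67 in callosal L5, 4.08 in association L2/3, and 3.63 in callosal L2/3. L6b was again lowest, but callosal L5 lay only 0.09 above it, which is no more than the spread of the array medians. Association L5 and callosal L2/3 nearly met. The range was 2.83-fold, between association L6b and association L2/3.

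Among the pore genes, *Cacna1e* varied most. It encodes the pore of the R-type current, which in neurons is known for calcium entry into spines and dendrites and for a part in transmitter release. It had a signal of 1.66 in association L6b, 0.50 in association L5, 1.36 in callosal L5, 2.43 in association L2/3, and 1.55 in callosal L2/3. Here association L5, not L6b, was lowest, and association L2/3 was highest by 0.77 over the next array. L6b, callosal L2/3, and callosal L5 lay close together between these extremes. The range of *Cacna1e* was 3.81-fold.

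*Cacna1a*, the pore of the P/Q-type current and the main pore of fast transmitter release at many central synapses, had signals of 0.52 in association L6b, 1.11 in association L5, 1.14 in callosal L5, 1.55 in association L2/3, and 1.14 in callosal L2/3. Its deposited value was 6.88 in the 3 arrays in the middle, 6.32 in L6b, and 7.26 in association L2/3. *Cacna1b*, the pore of the N-type current, lay at 0.55 in association L5 and at 0.68 to 0.77 in the other arrays. The range of *Cacna1a* was 2.04-fold, or 0.94 on the log2 scale as deposited, and that of *Cacna1b*, with 4 tied values, was 1.16-fold.

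The signals of the L-type and T-type pores varied little, but each had the same deposited value in at least 4 of the 5 arrays. With such ties, a small spread does not show that the RNA was equal between groups. *Cacna1c*, the L-type pore that is the more abundant in brain, was at 0.30 to 0.39, and *Cacna1d*, the L-type pore that opens at lower voltages, at 0.11 to 0.33. The T-type pore *Cacna1g*, known for burst firing in thalamic relay neurons, was at 0.62 to 0.71, *Cacna1h* at -0.05 to 0.05, and *Cacna1i* at -0.29 to -0.20. As a measure of signal from genes that cortical neurons are known not to use, 1194 olfactory and vomeronasal receptor genes had a 95th percentile of 0.10 to 0.23 over the arrays. *Cacna1h* and *Cacna1i* were not above it in any array, and *Cacna1d* was not above it in association L5. The other 7 genes were above it in all 5 arrays. For *Cacna1h* and *Cacna1i* a difference between arrays was not detectable at this signal, and *Cacna1h* passed the filter described next by small margins, at 0.05 in association L6b and 0.01 in association L2/3.

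For comparisons over all genes, a gene was kept if any of its 5 values was at or above the median of its array, which left 12632 genes. Of the calcium channel genes, 9 of 10 were kept and *Cacna1i* was not. Counts out of 10 here and below include this gene, which the shares of all genes kept leave out. A range of at least 2-fold over the 5 arrays was found in 29.5% of the 12632 genes and in 4 of the 10 calcium channel genes, all among the 9 kept. The median range was 0.53 over all genes kept and 0.22 over the 9 calcium channel genes kept. Association L2/3 had the highest deposited value, with no tie, in *Cacna1a*, *Cacna1e*, *Cacna2d1*, and *Cacna2d3*, which were all 4 of the genes with a range of at least 2-fold. This was so in 17.2% of all genes kept and in 28.8% of the 3722 genes with such a range. L6b had the lowest deposited value, with no tie, in *Cacna1a*, *Cacna2d1*, and *Cacna2d3*, 3 of these 4 genes, against 17.4% of all genes kept and 34.4% of the 3722. Association L5 was lowest, with no tie, in *Cacna1e*, *Cacna1b*, and *Cacna1d*, 3 of the 10 genes, against 15.3% of all genes kept. In *Cacna1b* and *Cacna1d* the other 4 deposited values were identical and association L5 was only 0.16 lower, so these 2 add little to the count.

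The promoters of the 3 genes with the widest ranges are shown because their signals moved most, and because they show how unlike the start regions of these genes are. Each is the 250 bases before a transcription start that RefSeq annotates on GRCm38.p6, read on the strand of the gene from 5′ to 3′. Capitals mark GGGCGG or its reverse complement, the core of the GC box that factors of the Sp family are known to bind. The *Cacna2d1* promoter is chr5:15934441-15934690 on the + strand, the *Cacna2d3* promoter is chr14:29721865-29722114 on the - strand, and the *Cacna1e* promoter is chr1:154725921-154726170 on the - strand.
Cacna2d1: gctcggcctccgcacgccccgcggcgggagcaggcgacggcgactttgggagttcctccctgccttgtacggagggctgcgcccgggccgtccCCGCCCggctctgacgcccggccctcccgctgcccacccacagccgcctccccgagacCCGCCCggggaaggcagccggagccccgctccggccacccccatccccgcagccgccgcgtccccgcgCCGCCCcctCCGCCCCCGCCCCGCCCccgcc
Cacna2d3: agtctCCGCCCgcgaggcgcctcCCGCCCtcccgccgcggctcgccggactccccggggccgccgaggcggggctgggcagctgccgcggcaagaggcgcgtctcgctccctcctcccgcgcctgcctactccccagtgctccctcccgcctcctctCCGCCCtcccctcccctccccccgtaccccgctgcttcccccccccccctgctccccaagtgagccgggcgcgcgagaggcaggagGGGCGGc
Cacna1e: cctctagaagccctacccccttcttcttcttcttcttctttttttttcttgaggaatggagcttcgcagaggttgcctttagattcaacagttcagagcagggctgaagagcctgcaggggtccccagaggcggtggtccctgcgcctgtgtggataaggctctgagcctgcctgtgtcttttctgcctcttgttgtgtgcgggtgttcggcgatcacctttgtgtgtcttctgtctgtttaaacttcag
The *Cacna2d1* window was 82.4% G and C, held 36 CpG dinucleotides, and had 6 matches to the GC box. The *Cacna2d3* window was 80% G and C, with 30 CpG dinucleotides and 4 matches. The *Cacna1e* window was 52% G and C, with 6 CpG dinucleotides and no match, close to the median promoter, which was 52.4% G and C with 6 CpG dinucleotides. Among 32851 mouse promoters of the same length, 32.7% held at least 1 match and 8.47% at least 3. As many CpG dinucleotides as in *Cacna2d1* were found in 2.58% of promoters, and as many as in *Cacna2d3* in 5.94%. Of the 10 calcium channel genes, 7 had at least 1 promoter in the table, 10 promoters in all, and 5 of these 10 held the GC box, those of *Cacna1b*, *Cacna1c*, *Cacna1d*, *Cacna2d1*, and *Cacna2d3*. On either strand, the TATA box TATAAA was found in 1 of the 10, a promoter of *Cacna1d*, and in 12.4% of all promoters. The cyclic AMP response element TGACGTCA was found in 0 of the 10 and in 1.55% of all promoters, and the E-box CAGATG in 2 of the 10, both of *Cacna1c*, and in 14.4% of all promoters. A match describes the letters in the window and is not a measured site.

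The first question of the design was how association neurons differed from callosal neurons within a layer. In L2/3, no calcium channel gene differed by 2-fold, while 8.55% of the 12632 genes did, 5.07% higher and 3.48% lower in association neurons. *Cacna1e* was 0.88 higher in association than in callosal neurons of L2/3 (1.84-fold), *Cacna2d1* 0.66 higher, *Cacna2d3* 0.45 higher, and *Cacna1a* 0.41 higher. The 6 remaining genes were 0.03 higher, which is the difference of the array medians. In L5, no calcium channel gene differed by 2-fold either, while 8.46% of all genes did, 3.49% higher and 4.97% lower in association neurons. *Cacna2d3* was 0.92 higher in association than in callosal neurons of L5 (1.89-fold). *Cacna1e* was lower in association than in callosal neurons of L5, at -0.86 (1.82-fold). The differences of the other genes in L5 lay between -0.19 and -0.01. *Cacna2d3* thus stood higher in association neurons of both layers, and *Cacna1e* stood higher in L2/3 and lower in L5. For the scale of such differences, the SD over all genes was 0.61 in each of these comparisons, and 512 genes with a pair of probe sets past the filter had a median disagreement of 0.27 in L2/3 and 0.31 in L5 between the probe sets. The 95th percentile of that disagreement was 2.04 in L2/3 and 2.03 in L5, wider than any of these differences of calcium channel genes. Marker genes of other cells moved in these comparisons too. In L2/3, GABAergic markers were at least 2-fold higher in association neurons in 2 of 8, *Pvalb* (4.57 against 2.26) and *Gad2* (2.18 against 0.54). The summed signal of all 8 was 62.7 in association and 39.2 in callosal neurons. *Slc32a1* (2.74 against 2.18) and *Gad1* (1.46 against 1.30) were higher by less. *Sst* (4.23 against 4.24), *Vip* (1.74 against 2.03), *Lhx6* (0.64 against 0.73), and *Dlx1* (0.36 against 0.37) were level or lower. The median difference of the list was 0.075. In L5, oligodendrocyte markers were at least 2-fold higher in association neurons in 2 of 6, *Mag* (3.96 against 0.64) and *Mobp* (3.83 against 2.32). The summed signal of all 6 was 40.7 in association and 20.1 in callosal neurons. *Mbp* (2.03 against 2.25), *Cnp* (1.80 against 2.47), and *Opalin* (-0.12 against 0.31) were lower, and the median difference of the list was 0.03. Of 8 GABAergic markers, 1 was at least 2-fold lower, *Vip* (-0.13 against 2.14). Their summed signal was 48.6 in association and 63.8 in callosal neurons, and the median difference of the list was -0.245. The part of these markers in the differences of *Cacna1e* and *Cacna2d3* was not tested.

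The second question was how L5 differed from L2/3 among neurons with the same target. Among association neurons, *Cacna1e* was lower in L5 than in L2/3 at -1.93 (3.81-fold), which ranked 220 from the lowest of 12632 genes. *Cacna2d1* was lower in L5 at -1.28 (2.43-fold). These were 2 of the 10 genes, and both were lower, against 10.8% of all genes past 2-fold in either direction and 7.36% lower. Both differences were smaller than 2.07, the 95th percentile of the disagreement between probe sets of a gene in this comparison. *Cacna2d3* was at -0.49 and *Cacna1a* at -0.44. The median difference was -0.22 over the 9 calcium channel genes kept and -0.06 over all genes kept. Among callosal neurons, no calcium channel gene differed by 2-fold between L5 and L2/3, while 8.6% of all genes did, 4.08% higher and 4.52% lower in L5. *Cacna2d3* was at -0.96 (1.95-fold), *Cacna2d1* at -0.48, and *Cacna1e* at -0.19. The 95th percentile of the disagreement was 1.95 there, wider than each of these differences. *Cacna2d1* was past 2-fold among callosal neurons by its second probe set, at -1.22.

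Marker genes of other cells also differed between the association arrays of L5 and L2/3. Oligodendrocyte markers were at least 2-fold higher in L5 in 3 of 6, with summed signals of 40.7 in L5 and 9.35 in L2/3. GABAergic markers were at least 2-fold lower in L5 in 2 of 8, with summed signals of 48.6 in L5 and 62.7 in L2/3. The median difference was 0.965 over the oligodendrocyte markers and -0.305 over the GABAergic markers. Their part in the differences of *Cacna1e* and *Cacna2d1* was not tested. In pooled cells, fewer cells that express a gene and less of its RNA per cell cannot be told apart.

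**Figure D3:**
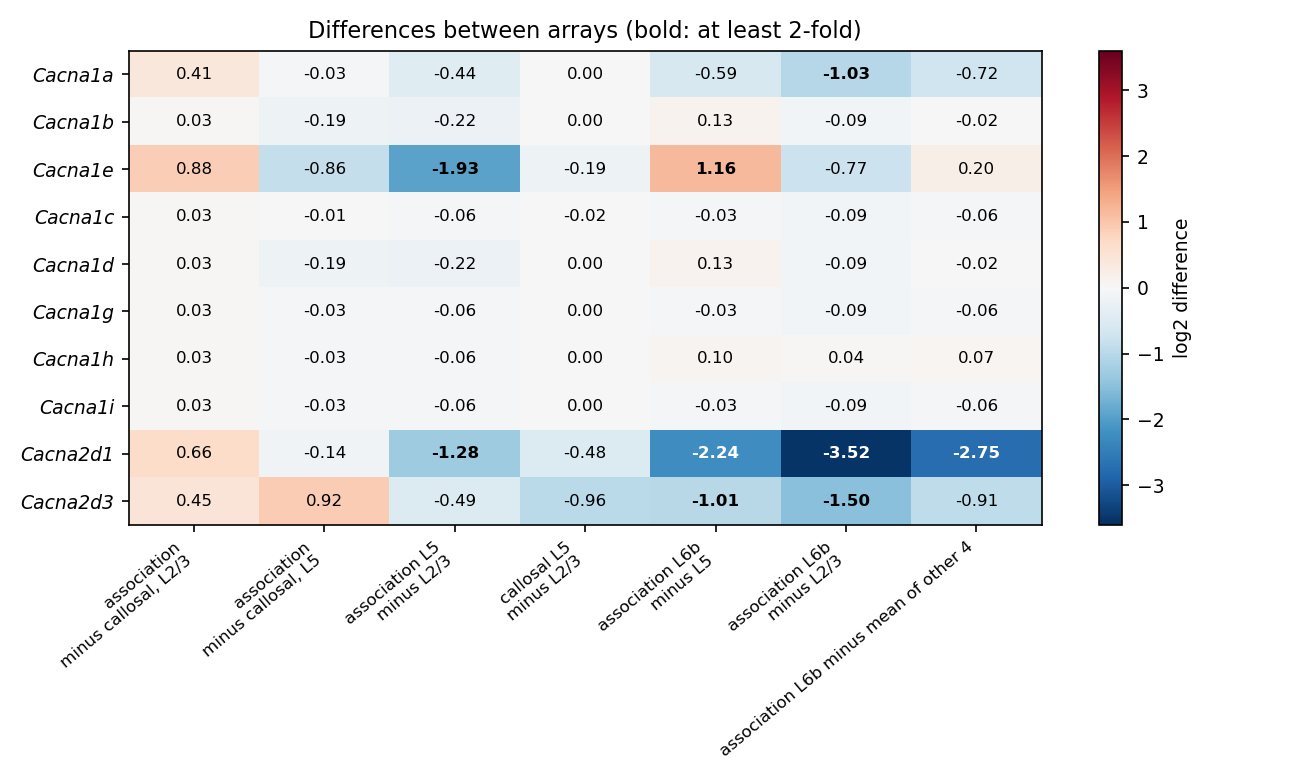
Log2 differences of the 10 calcium channel genes (rows) in the 7 comparisons (columns), with red for higher and blue for lower in the group named first and bold print for at least 2-fold. *Cacna2d1* reached -3.52 in association L6b against L2/3, and *Cacna1e* changed sign between association minus callosal in L2/3 (0.88) and in L5 (-0.86).

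The third question was what set the association neurons of L6b apart. Against association L5, *Cacna2d1* was lower in L6b at -2.24 (4.72-fold, rank 168 from the lowest). *Cacna2d3* was lower at -1.01 (2.01-fold), and *Cacna1e* was higher at 1.16 (2.23-fold, rank 358 from the highest). These 3 of 10 genes compare with 10.7% of all genes past 2-fold, 3.5% higher and 7.16% lower. All 3 differences were smaller than 2.44, the 95th percentile of the probe set disagreement in this comparison. *Cacna2d3* was at the limit, with -0.98 as deposited. Against association L2/3, *Cacna2d1* was lower in L6b at -3.52 (11.5-fold, rank 46 from the lowest), *Cacna2d3* at -1.5 (2.83-fold), and *Cacna1a* at -1.03 (2.04-fold). These were 3 of 10, all lower, against 13.4% of all genes past 2-fold and 10.6% lower. The 95th percentile of the probe set disagreement was 2.37 here, and only the difference of *Cacna2d1* was larger. Its second probe set gave -2.77. *Cacna1a* was also at the limit, with -0.94 as deposited, and *Cacna1e* was at -0.77.

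Against the mean of the other 4 arrays, *Cacna2d1* was lower in L6b at -2.75 (6.73-fold), which ranked 55 from the lowest of 12632 genes. It was the only 1 of the 10 genes past 2-fold, against 8.99% of all genes, 2.44% higher and 6.55% lower. Leaving out each of the other arrays in turn gave -2.92 to -2.49 for *Cacna2d1*. By its second probe set it was at -1.77. The 95th percentile of the probe set disagreement was 2.19 in this comparison, which -2.75 exceeded and -1.77 did not. *Cacna2d1* was also at least 2-fold lower in L6b than in each single array, which 2.82% of all genes were, while 1.26% were at least 2-fold higher than in each and no calcium channel gene was. *Cacna2d3* was at -0.91 against the mean of the others, and at -1.19 when callosal L5, the array nearest to L6b, was left out. *Cacna1a* was at -0.72. *Cacna1e* was at 0.20, but at -0.12 when association L5 was left out and at 0.52 when association L2/3 was left out. The 6 remaining genes were within 0.07 of the mean.

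Other marker lists moved with L6b as well. Against the mean of the other arrays, oligodendrocyte markers were at least 2-fold higher in L6b in 4 of 6, and GABAergic markers at least 2-fold lower in 3 of 8. *Pvalb*, the gene of parvalbumin and a marker of a subclass, was below the array median in L6b (-1.38), against 2.26 to 4.57 elsewhere, and *Sst*, the gene of somatostatin and of another subclass, was at 2.45 in L6b and at 3.78 to 4.66 in the others. Of the genes that GABAergic neurons share, *Slc32a1*, the vesicular GABA transporter, was at 1.93 in L6b, within the 1.83 to 2.74 of the others. *Gad1* and *Gad2*, genes of GABA-synthesizing enzymes, were both lowest in L6b. *Gad1* was at 0.45 there, against 1.18 to 2.00, and *Gad2* at 0.25, against 0.45 to 2.18. The remaining GABAergic markers on the list lay within the range of the other arrays. They were *Lhx6* (0.70 in L6b, against 0.64 to 1.11), *Dlx1* (0.27 in L6b, against 0.24 to 0.37), and *Vip* (0.73 in L6b, against -0.13 to 2.14). Among glutamatergic markers, 2 of 5 were at least 2-fold lower in L6b and 0 higher, while *Slc17a7*, which encodes the vesicular glutamate transporter of cortical neurons, was at 3.98 in L6b and at 3.84 to 4.47 in the others. The part of these lists in the differences of *Cacna2d1*, *Cacna2d3*, and *Cacna1a* was not tested.

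**Figure D4:**
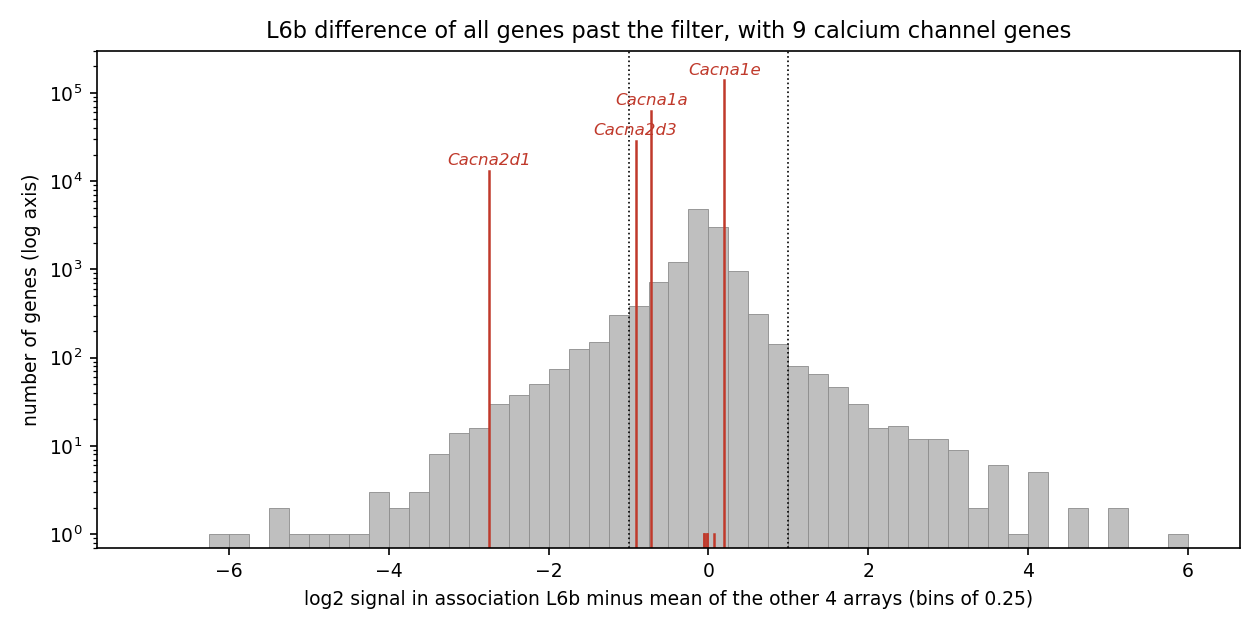
Number of genes (vertical axis, log scale) by the log2 difference of L6b from the mean of the remaining 4 arrays (horizontal axis, bins of 0.25) for 12632 genes, with red lines at the 9 calcium channel genes kept; the height of the red lines has no meaning, and dotted lines mark 2-fold. *Cacna2d1* lies at -2.75 in the lower tail, and the other 8 lie between -0.91 and 0.20.

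The genes whose pattern over the 5 arrays came nearest were sought among 11631 named genes, by the root mean square distance of log2 signals after each gene's own mean was subtracted. Nearest to *Cacna2d1* were *Camk2a*, the α subunit of CaMKII, at a distance of 0.154, *Kcnd2*, a pore of A-type potassium current, at 0.192, and *Rtn4rl1*, a gene of the Nogo receptor family, at 0.231. The median distance of all genes from *Cacna2d1* was 1.18. *Camk2a* had signals of 2.41 in association L6b, 4.41 in association L5, 4.91 in callosal L5, 5.75 in association L2/3, and 5.41 in callosal L2/3. It is also among the glutamatergic markers that were at least 2-fold lower in L6b than the mean of the other arrays. Nearest to *Cacna1e* were *Osbpl2*, of the oxysterol-binding protein family, at 0.117, the nucleolar protein gene *Nop16* at 0.133, and the kinase gene *Taok1* at 0.134, with a median distance of 0.636. Nearest to *Cacna2d3* were *Snw1*, a gene of splicing and transcription, at 0.0736, *Lifr*, a receptor of leukemia inhibitory factor, at 0.0983, and *Tafa2*, which encodes a secreted protein, at 0.0997, with a median distance of 0.608. Pearson's r with these 9 genes was 0.978 to 0.995 over 5 points that all share the same arrays, and is given as a description.

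Of the other pore and α2δ genes on the array, the retinal L-type pore *Cacna1f*, the skeletal muscle pore *Cacna1s*, *Cacna2d2*, and *Cacna2d4*, none differed by 2-fold in any comparison. Their signals lay between -0.67 and 0.15. *Cacna2d2* had 1 deposited value in all 5 arrays and was not above the 95th percentile of receptor genes in any, and *Cacna2d4* was above it in association L2/3 only. For both, a difference between arrays was not detectable at this signal.

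The β subunits bind the pore inside the cell and are needed for its transport to the membrane. A probe set was found for 3 of 4 β genes, and *Cacnb3* was not analysed here. *Cacnb4*, a β gene known from epilepsy and ataxia in mice, was at 3.64 in association L6b, 3.57 in association L5, 3.93 in callosal L5, 4.45 in association L2/3, and 3.35 in callosal L2/3. It was 2.14-fold higher in association than in callosal neurons of L2/3, the only comparison in which a β gene passed 2-fold, and it did not share the low L6b signal of *Cacna2d1*. *Cacnb1* was at 1.08 to 1.76, lowest in L6b, and *Cacnb2* lay below the array median in all 5 arrays.

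The γ genes were named as calcium channel subunits, and several are better known as TARPs, which carry AMPA receptors to the synapse. *Cacng6* was not analysed here, and of the other 7 γ genes, 3 passed 2-fold in at least 1 comparison, against 26.9% of the 12632 genes. *Cacng3*, a TARP gene, was at -0.03 in association L6b, 0.16 in association L5, 4.70 in callosal L5, 4.64 in association L2/3, and 4.71 in callosal L2/3. It was near the array median in both deep association arrays, where it was not above the 95th percentile of receptor genes, and high in the other 3, so no fold is given. *Cacng7* was at 1.27 in association L6b, 3.53 in association L5, 2.17 in callosal L5, 2.55 in association L2/3, and 2.74 in callosal L2/3, lowest in L6b as was *Cacna2d1*. *Cacng2*, the gene of stargazin, was 1.72 higher in association than in callosal L5, but only 0.52 higher by its second probe set. The 2 probe sets also disagreed in L6b, where they gave 3.26 and 1.02.

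**Figure D5:**
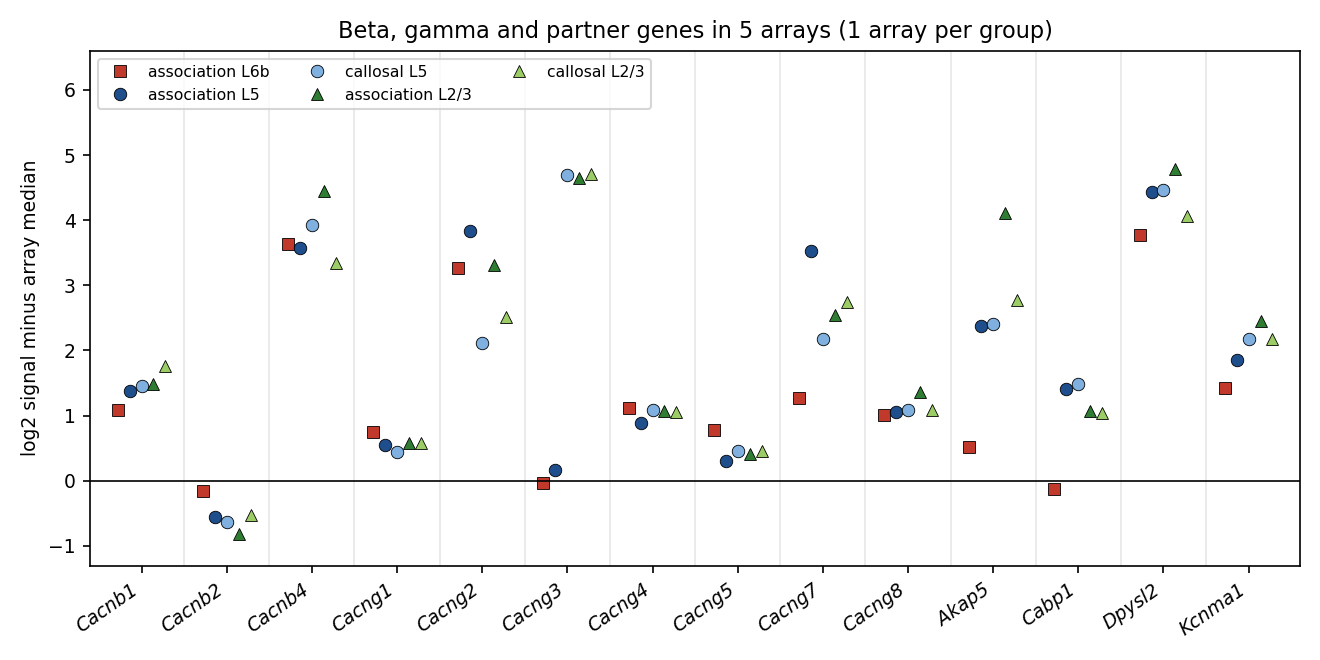
Log2 signal minus the array median (vertical axis) of β, γ, and partner genes (horizontal axis) in the 5 arrays, 1 marker per array and no error bars because each group had 1 array. *Cacng3* lies near 0 in both deep association arrays and between 4.64 and 4.71 in the other 3, and *Akap5* spreads between 0.52 in association L6b and 4.11 in association L2/3.

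Partners that bind or regulate the channels were measured for 14 of 16 listed genes, of which 10 passed the filter. Of these 10, 3 passed 2-fold in at least 1 comparison, a share close to the 26.9% of the 12632 genes that did so. *Akap5*, the anchor that holds kinases and a phosphatase at L-type channels, was at 0.52 in association L6b, 2.37 in association L5, 2.40 in callosal L5, 4.11 in association L2/3, and 2.78 in callosal L2/3. As for *Cacna2d1*, L6b was lowest, the L5 arrays, which tied as deposited, lay next, and association L2/3 was highest, and *Akap5* was 12.0-fold lower in association L6b than in association L2/3. *Cabp1*, a calmodulin-like protein that changes how channels inactivate, was at -0.12 in L6b, against 1.04 to 1.49 elsewhere. *Dpysl2*, also called CRMP2 and known to bind N-type channels, was exactly 2-fold lower in association L6b than in association L2/3, but at -0.91 as deposited. Calcium-activated potassium channels, which calcium channels switch on, were measured for 5 of 5 listed genes, and only the BK channel pore *Kcnma1* reached 2-fold. It was lower in association L6b than in association L2/3 at -1.04, with -0.95 as deposited and -0.38 by its second probe set.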

How the data were processed

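The authors collected labeled S1 neurons of 5 groups, amplified the RNA, and hybridized 1 GeneChip Mouse Gene 1.0 ST array per group. They deposited 1 table of log2 signals with 2 decimals. The submitters' processing notes name Affymetrix Expression Console, with no version, and the methods name log transformation, global normalization, and centering. The table is not centered per gene, and the sources used here do not name the method that summarized the probes. Annotation of the platform gave 1 symbol for 21789 of 35556 probe sets, several for 1621, and none here for 12146, and those with several symbols named no gene. Array medians (5.71 to 5.80) were subtracted, the probe set with the highest mean signal stood for each gene, and 12632 of 19938 genes, each with 1 or more values at or above an array's median, were kept. Differences of at least 2-fold were counted in 7 comparisons. The single array per group limits the precision of every value. The calcium channel genes, the lists of partners and markers, and the comparisons were chosen with earlier results of these data known. Named genes were the 10 calcium channel genes, listed partners past 2-fold, the 3 genes nearest in pattern to each of 3 channel genes, and, of the marker lists, the brightest, from which only a few are printed. Other channel subunit genes on the lists are named as members of their families. *Gad1*, *Gad2*, *Vip*, *Lhx6*, *Dlx1*, *Nrgn*, *Mag*, and *Opalin* were named after their values were seen. Of the lists not discussed, astrocyte, microglia, oligodendrocyte precursor, and endothelial markers had 0 genes past 2-fold in L6b against the mean of the other arrays, L2/3 markers had 4 of 6 lower, and L5 markers 1 higher and 2 lower of 6. Promoters came from a RefSeq table of GRCm38.p6. Alternatives were 3 other scalings, the mean of a gene's probe sets, other filters and fold limits, and leaving out arrays. The second probe set of *Cacna2d1* was added after its values were seen. The steps were tested on simulated data. Python 3.11.15, numpy 2.4.6, pandas 2.3.3, and matplotlib 3.10.9 were used.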

Additional observations from a re-analysis of the deposited data

Results flagged for a closer look

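*Cacna1e*, the R-type pore, stood out because its difference between association and callosal neurons ran in opposite directions in the 2 layers. It was 0.88 higher in association neurons in L2/3 and 0.86 lower in L5 (log2 difference -0.86). With 1 array per group the difference between the layers was not tested. Differences of at least 1.5-fold in opposite directions in L2/3 and L5 were found in 3.04% of the 12632 genes, and *Cacna1e* was the only 1 of the 10 calcium channel genes among them. Groups of 1 array could not be searched for outlying samples.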

How the results depend on the processing

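The counts of calcium channel genes past 2-fold kept within 1.5 times their value in 52 of 60 alternatives. With 1.5-fold as the limit, association minus callosal gave 2 genes in L2/3 and 2 in L5 in place of 0, callosal L5 minus L2/3 gave 1 in place of 0, and L6b against the mean of the rest gave 3 in place of 1. With 4-fold, association L5 minus L2/3 gave 0 in place of 2, and association L6b gave 1 in place of 3 against L5 and 1 in place of 3 against L2/3. Without callosal L5, L6b against that mean gave 2 in place of 1, and 1 without each of the other arrays. Of 327 alternative differences of single genes, 319 kept their side of 2-fold and 0 of those past it changed sign. *Cacna2d3* in L6b against association L5 fell under 2-fold by values as deposited (-0.98), by 75th percentiles (-0.95), and by quantile normalization (-0.87), and *Cacna1a* in L6b against association L2/3 did so too (-0.94, -0.87, and -0.90). The second probe set of *Cacna2d1* gave -1.22 for callosal L5 minus L2/3 in place of -0.48. The cause of these changes was not tested. Low signals near those of receptor genes limit what can be said of *Cacna1d*, *Cacna1h*, and *Cacna1i*. No paired analysis was possible because each group has 1 array and the labels give no replicate numbers.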
